A study of Bos taurus with 147 samples.

Results

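The genes described here encode the lysosomal proton pump, lysosomal proteases, lysosome membrane proteins and the vacuolar protein sorting factors of endosomes and lysosomes. They were chosen by name. A transcript was a member where its single gene symbol on the platform began with ATP6V, ATP6AP or VPS and a number, was LAMP1, LAMP2 or LAMP3, or was CTS followed by a single letter. This gave 55 members among the 10986 transcripts of the value table, of which 8863 carried 1 gene symbol. Another 2 transcripts, in which VPS35 or ATP6V1F stood beside a further symbol, were not used. Each member had 1 transcript, and its symbol and gene identifier matched a RefSeq gene in 55 of 55 cases. The members comprised 16 subunits and partners of the proton pump, 11 cathepsins, the membrane proteins LAMP1 and LAMP2, and 26 VPS genes. By function VPS72 does not belong to the endosome, since its protein is a histone chaperone of chromatin remodelling complexes, but it carries the name and was kept.

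RNA was taken from the adrenal cortex of 145 female F2 cows of the cross between German Holstein and Charolais, and each cow had its own array. All cows were slaughtered early in the second lactation, at an age of 1127 to 1774 days, and the labels name no treatment and no control group. The labels divided them by year and season of slaughter into 25 classes of 2 to 13 cows, such as Summer2004, which covered 8 years up to 2011. Summer classes held 45 cows, spring classes 36, autumn classes 38 and winter classes 26. The population consisted of half-sib and full-sib families, and cows were treated as independent here, so p-values may be too small.

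Lysosomes are acidic compartments in which proteins, lipids and sugars are broken down. The V-ATPase acidifies them: its V1 sector hydrolyses ATP in the cytosol and its V0 sector carries protons across the membrane. The cathepsins are the main proteases inside, and LAMP proteins line the membrane. VPS proteins were named after yeast mutants that missort vacuolar proteins, and they tether membranes (the HOPS and CORVET complexes), return cargo from endosomes (retromer and GARP) or sort cargo into multivesicular bodies (ESCRT). Adrenal cortex cells use cholesterol that lysosomes release from lipoproteins. Macrophages are rich in lysosomal proteases and are the main source of complement C1q, whose B chain is encoded by C1QB. Chromaffin cells of the neighbouring medulla fill their granules with the help of the V-ATPase, and CHGB encodes chromogranin B of these granules.

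The values were log2 signals, with array medians from 7.89 to 8.08. Markers of steroid-producing cortex gave means of 9.51 to 13.85 in the 9 of 11 listed genes that were measured. The signal of C1QB had a lowest value of 10.71, a median of 11.76 and a highest value of 13.15. CHGB ranged from 7.37 over a median of 10.99 to 13.12. Neither marker differed between classes (adjusted p = 0.98 for C1QB and 0.507 for CHGB). After class and age were removed, 28.8% of the variance of the 10931 other transcripts lay on a first principal component, which correlated with C1QB at r = -0.31 and with CHGB at r = 0.33 (permutation p = 0.00017 and 2e-05). Its origin was not tested. The slopes of named members on a marker are therefore mostly given without and with the component as a further term. Those of some cell type markers are given without it only.

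Single arrays stood at the end of several members. A cow of summer 2008 had the highest C1QB signal and also the highest signal of 4 cathepsins, CTSC, CTSH, CTSS and CTSZ. A cow of summer 2011 had the lowest signal of 9 members, among them CTSK, CTSV, VPS35L and ATP6V1G1, and the highest of 6 others. The median correlation of these arrays with all others was 0.966 and 0.963, within the range of 0.95 to 0.979 over all arrays. Without either of these cows the number of members called for C1QB was 29 (52.7%) in place of 27 (49.1%). Over all transcripts the share called was 41.3% without the cow of summer 2008 and 38.1% without that of summer 2011, in place of 35.9%. The choice of these cows was made after seeing the data.

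All members were measured in every cow, and their medians ran from 6.42 for VPS45 to 12.54 for ATP6V0D1. A signal also depends on the probes, so the medians do not rank the genes by RNA amount. The spread between cows was small for most members. The residual SD after class and age was above the median of all transcripts, 0.25, in 20 of 55 members. It was lowest for VPS53, a subunit of the GARP complex, with 0.112, and VPS35L, part of the retromer-like retriever complex, had 0.132. It was highest for ATP6V1C2, an isoform of the C subunit of the V1 sector, with 0.617, which lay at percentile 97.4 of all transcripts.

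**Figure D1:**
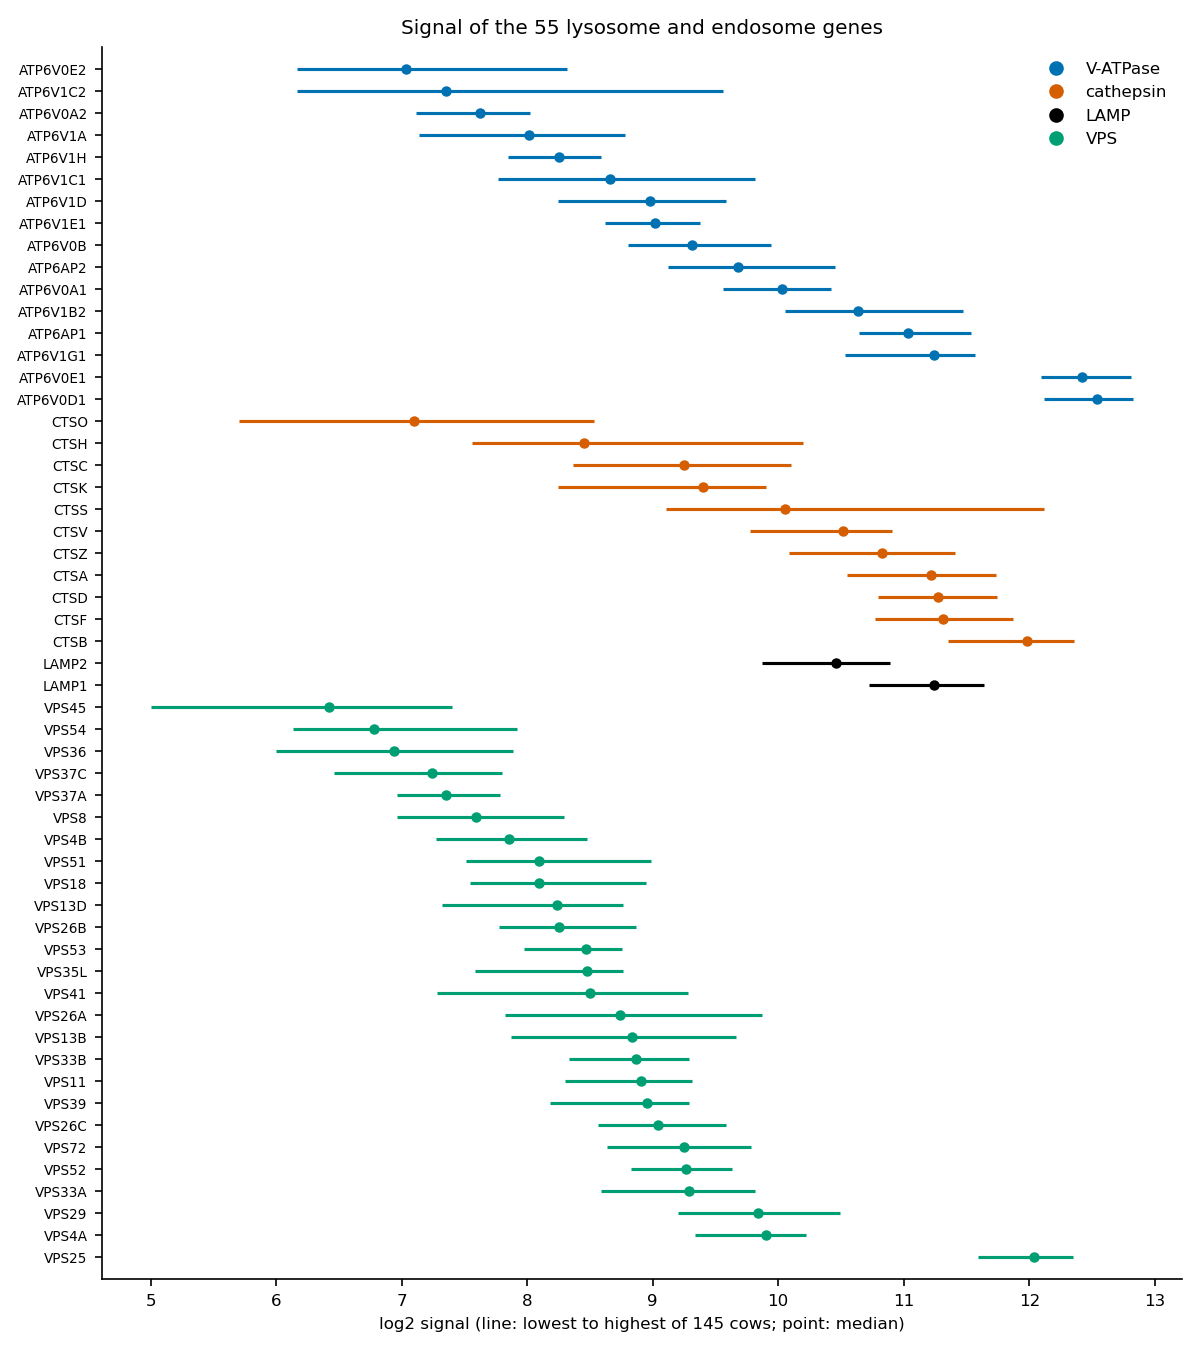
Signals of the 55 members. The horizontal axis gives the log2 signal, each line spans the lowest to the highest of 145 cows, and each point is the median. The longest line of the proton pump belongs to ATP6V1C2 (6.16 to 9.56), and the longest of the cathepsins is that of CTSS (9.10 to 12.12).

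The first question was how the members varied with the macrophage gene C1QB among cows of the same class. Of 11 cathepsins, 8 were higher in cows with more C1QB and 0 were lower, with a median slope of 0.167 log2 units per log2 unit of C1QB. The proton pump had 3 higher and 3 lower among 16 members (median slope 0.02), the VPS genes 6 higher and 7 lower among 26 (median 0.02), and LAMP1 and LAMP2 were not called. Over all transcripts the median slope was 0.0063. Higher slopes were called for 16.7% of all transcripts and lower slopes for 19.2%, against 30.9% (17 of 55) and 18.2% (10 of 55) of the members. With the first component in the fit, 3.46% of all transcripts were higher and 1.36% were lower, and the members were higher in 5 cases (9.09%) and lower in 1. The 5 were CTSA, CTSC, CTSH, CTSS and VPS25. A weighting of arrays by quality called 15 members for C1QB (27.3%, against 12.4% of all transcripts).

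CTSH encodes cathepsin H, an aminopeptidase of the lysosome. Its signal had a lowest value of 7.56, a median of 8.45 and a highest value of 10.20. The next highest cow had 9.14, so that the cow of summer 2008 stood clearly above all others. The slope on C1QB was 0.56 ± 0.05 (SE, n = 145; adjusted p = 6.56e-16), and the correlation of the residuals was r = 0.69 and rho = 0.67 (permutation p = 1e-05 for both, the smallest that 100000 permutations can give). After the 2 cows with the most extreme C1QB residuals were dropped r was 0.66, and without the cow of summer 2008 the slope was 0.51. With the first component the slope was 0.49 (adjusted p = 2.88e-13).

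CTSS encodes cathepsin S, which in antigen-presenting cells cleaves the invariant chain of MHC class II. Its lowest, median and highest signals were 9.10, 10.05 and 12.12, with the second highest cow at 11.46. The slope was 0.48 ± 0.08 (adjusted p = 2.12e-06), with r = 0.48 and rho = 0.42 (permutation p = 1e-05 for both), and r was 0.43 without the 2 cows farthest in C1QB. Without the cow of summer 2008 the slope was 0.42. In contrast to the other cathepsins called here, CTSS correlated positively with the first component (r = 0.57), and with the component in the fit its slope was 0.73 ± 0.04 (adjusted p = 1.69e-29). The adjusted p of CTSS stayed under the threshold in all 20 alternative settings with a slope, and that of CTSH, CTSA, CTSC and VPS25 did so as well.

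CTSA encodes the serine carboxypeptidase that also protects beta-galactosidase and neuraminidase in the lysosome. It ranged from 10.55 over a median of 11.22 to 11.74, with no cow far from the next. Its slope on C1QB was 0.26 ± 0.05 (adjusted p = 1.03e-05) and 0.16 with the component (adjusted p = 0.0035). CTSC, the dipeptidyl peptidase that activates serine proteases of immune granules, ranged from 8.37 over 9.25 to 10.10. Its slope was 0.22 ± 0.06 without and 0.22 with the component (adjusted p = 0.0049 and 0.026), and 0.20 without the cow of summer 2008.

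The remaining cathepsins that were higher with C1QB lost the call once the component was included. CTSZ, a carboxypeptidase, had a slope of 0.21 (adjusted p = 0.00144), 0.19 without the cow of summer 2008, and 0.15 with the component (adjusted p = 0.055). CTSK, the collagen-degrading cathepsin best known from osteoclasts, had 0.17 (adjusted p = 0.00357), 0.15 without the cow of summer 2011, and 0.14 with the component (adjusted p = 0.057). CTSB and CTSD, the broadly expressed cysteine and aspartic proteases, had 0.13 and 0.10 and then 0.06 and 0.01 (adjusted p = 0.17 and 0.898). CTSF, CTSO and CTSV were not called without the component, with slopes of 0.07, -0.01 and -0.06 (adjusted p = 0.201, 0.901 and 0.287), nor with it.

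**Figure D2:**
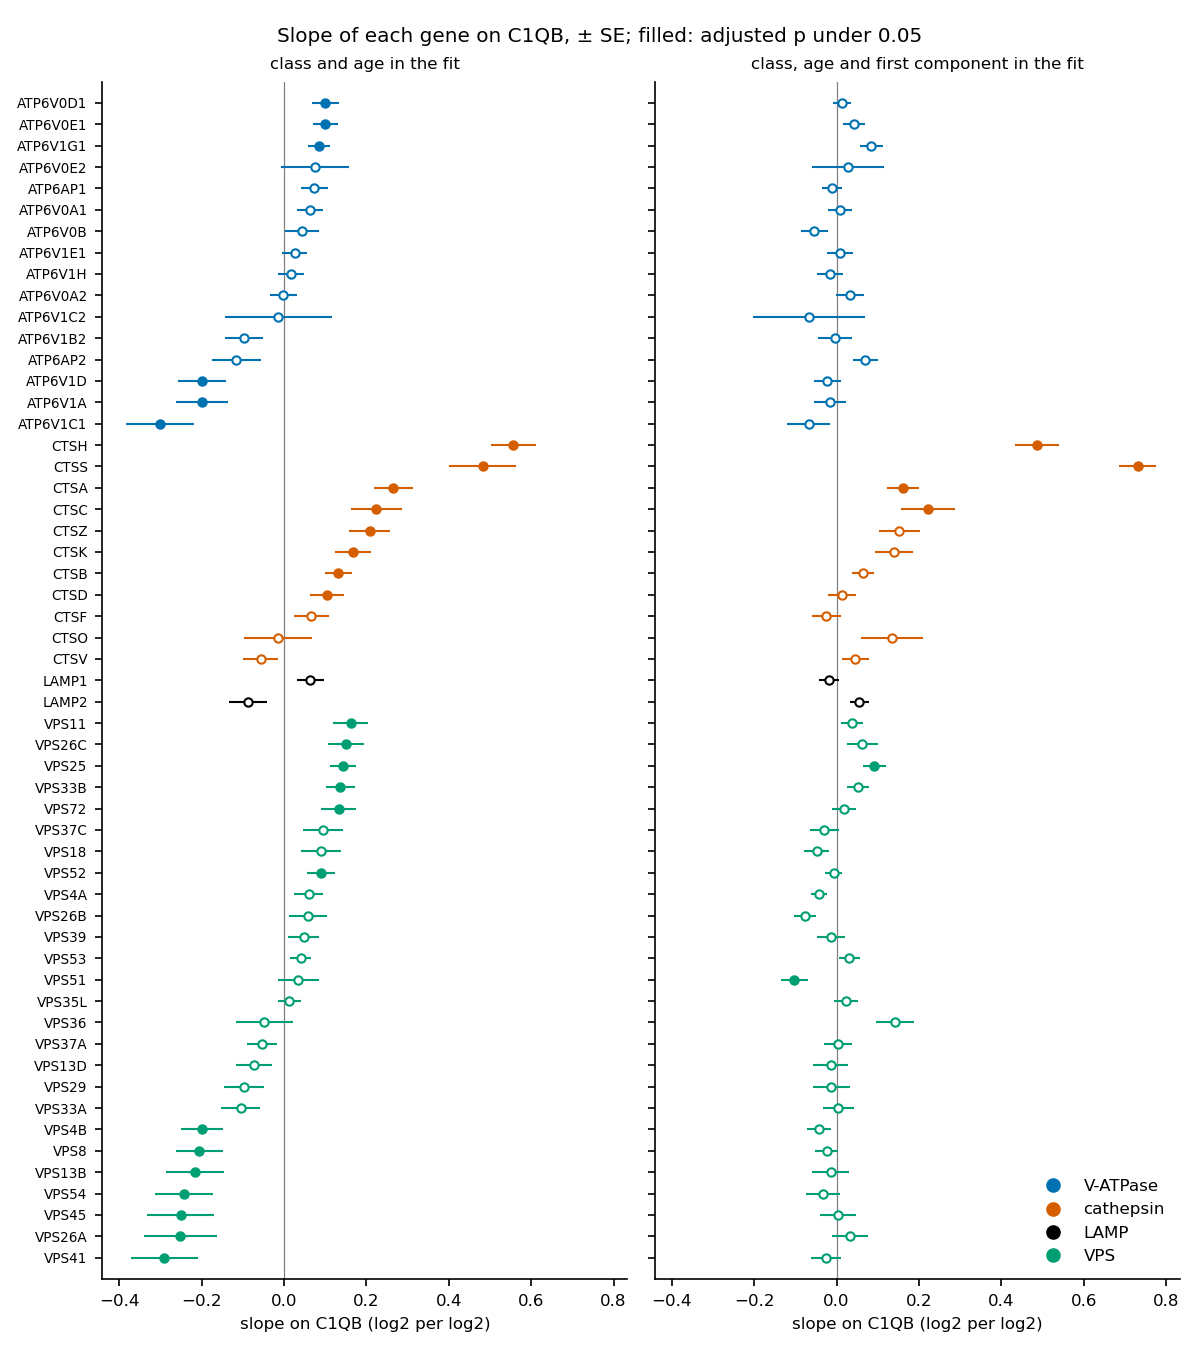
Slopes of the 55 members on C1QB. The horizontal axis is the slope in log2 units per log2 unit of C1QB with its SE, the left panel has class and age in the fit and the right panel adds the first component, and filled points have an adjusted p under 0.05. The left panel has 27 filled points and the right panel 6, of which 4 are cathepsins.

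Among the members lower with C1QB, ATP6V1C1, the other C subunit of the V1 sector, had the steepest slope, -0.30 ± 0.08 (adjusted p = 0.00403). VPS41, a subunit of HOPS, ranged from 7.28 over 8.50 to 9.28 and had a slope of -0.29 ± 0.08 (adjusted p = 0.00518). VPS26A of the retromer had -0.25, VPS45, a partner of endosomal syntaxins, -0.25, and VPS54 of the GARP complex -0.24. With the component these slopes were -0.07, -0.02, 0.03, 0.003 and -0.03, and none was called. All 10 members lower with C1QB correlated positively with the component, VPS41 at r = 0.92. VPS25, an ESCRT-II subunit, was the VPS gene that kept a higher slope, 0.14 ± 0.03 and 0.09 with the component (adjusted p = 0.000355 and 0.0348). VPS72 had 0.13 and then 0.02 (adjusted p = 0.0128 and 0.827). VPS51 of the GARP complex had 0.03 (adjusted p = 0.6) and was lower with the component, by -0.10 (adjusted p = 0.0418).

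**Figure D3:**
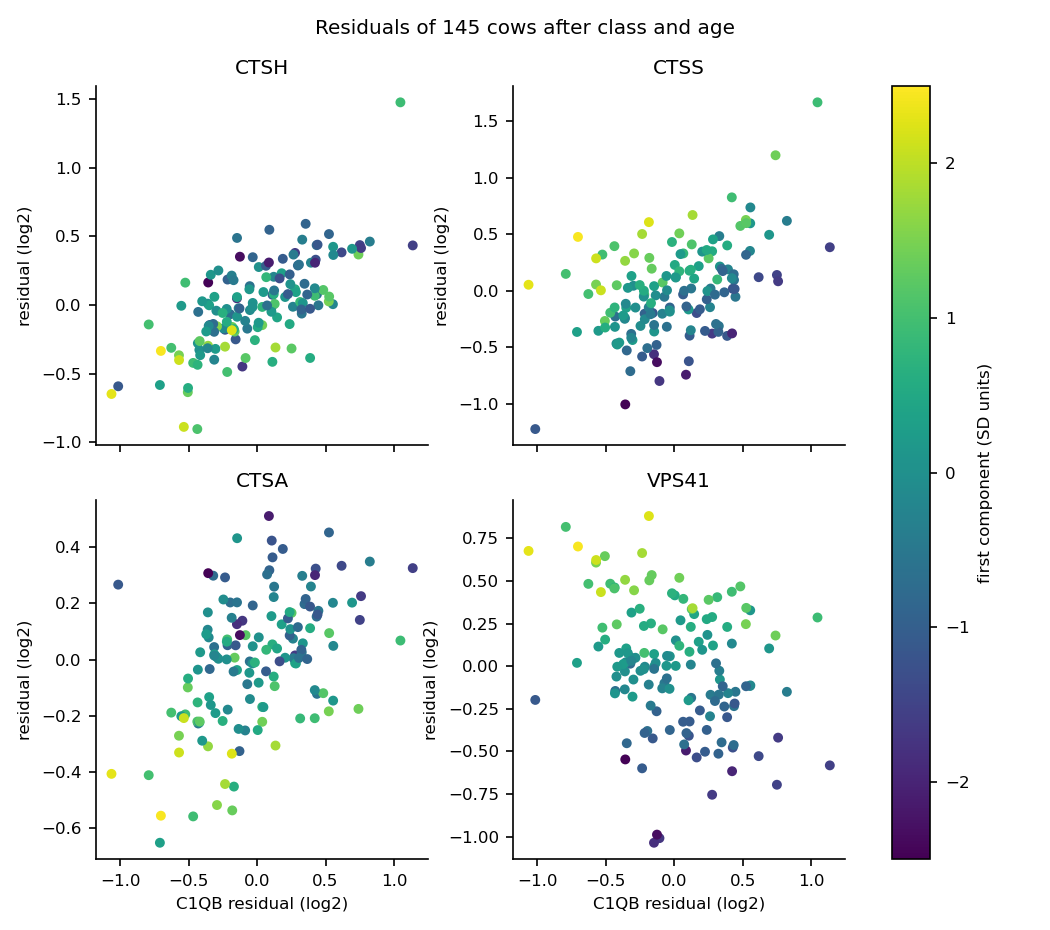
Residuals of CTSH, CTSS, CTSA and VPS41 (vertical axes, log2) against the residual of C1QB (horizontal axes, log2) in 145 cows after class and age, with the first component as the colour. In the CTSS panel cows with a high component lie above the others at the same C1QB (r of CTSS with the component 0.57), and in the CTSA and VPS41 panels the component runs across the cloud (r = -0.66 and 0.92).

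Markers of cell types moved with C1QB as well. All 13 measured genes of the macrophage list of 20 were higher, with slopes from 0.38 to 1.23 (C1QA) and a median of 0.86, and 12 of 13 were with the component. The slopes of CTSH and CTSS lay within this range, and those of the other cathepsins lay below it. All 5 measured genes of the T and NK cell list were higher too, 3 of 5 with the component, and 3 of 8 endothelial genes were, led by ESAM (0.33). Of 3 measured fibroblast genes, DCN and LUM had slopes of -0.18 and -0.21 (adjusted p = 0.0771 and 0.184), and the slope of the other is not printed here. The slopes of ESAM, DCN and LUM are given without the component. The part of these other cell types in the slopes of the cathepsins was not tested. Of 9 chromaffin and 9 cortex markers 0 were called for C1QB. In tissue RNA, more macrophages and more RNA per macrophage cannot be told apart.

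The other lysosomal genes were counted by list, against the 16.7% of all transcripts that were higher and the 19.2% that were lower with C1QB (3.46% and 1.36% with the component). Of 34 lysosomal hydrolases outside the cathepsins 25 were measured, and 15 were higher and 2 lower with C1QB (median slope 0.135), while 5 were higher and 0 lower with the component. ACP5, the tartrate-resistant acid phosphatase of macrophages and osteoclasts, ranged from 6.29 over 7.50 to 9.35 and had a slope of 1.05 ± 0.08, and 1.02 with the component. LGMN, the asparaginyl endopeptidase that processes several cathepsins, had 0.39 and 0.33. Of 15 measured membrane proteins and cofactors, 7 were higher and 1 lower, and 3 were higher with the component: GM2A (0.34 and 0.27), the activator of ganglioside breakdown, NPC2 (0.23 and 0.18), which moves cholesterol out of the lysosome, and CTNS (0.21 and 0.14), the cystine exporter. Of 20 genes of sorting and regulation 5 were higher and 4 lower, and 2 were higher with the component. CST3, which encodes the secreted cathepsin inhibitor cystatin C, was higher with C1QB (0.29, and 0.21 with the component), the only 1 of 3 measured inhibitors that was called.

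The same slopes were fitted on CHGB, the chromaffin gene. Of the 16 members of the proton pump 8 were higher and 2 lower, with 6 higher and 0 lower among the 8 subunits of the V1 sector. The cathepsins had 1 higher and 3 lower of 11, and the VPS genes 4 higher and 6 lower of 26. Over all transcripts 19.8% were higher and 24.5% lower, against 23.6% (13) and 21.8% (12) of the members. With the component 10.8% of all transcripts were higher and 12.2% lower, and of the members 12 (21.8%) were higher and 7 (12.7%) lower. The proton pump then had 7 higher and 1 lower. Without the cows of 2008 the count of members fell from 25 (45.5%, against 44.3% of all transcripts) to 7 (12.7% against 11.7%). After dropping the 2 cows with the most extreme CHGB residuals it was 15 (27.3% against 31.7%). Under array weights it was 10 (18.2% against 23.2%).

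CTSO, a widely expressed cysteine cathepsin, had the steepest slope on CHGB of all members. Its signal ranged from 5.71 over 7.10 to 8.53, and the slope was 0.26 ± 0.03 log2 units per log2 unit of CHGB (adjusted p = 2.44e-15; r = 0.67, rho = 0.69, permutation p = 1e-05 for both). With the component it was 0.22. ATP6V0E2, an isoform of the small e subunit of the V0 sector, ranged from 6.16 over 7.03 to 8.32, with a slope of 0.25 ± 0.03 (adjusted p = 1.6e-13) and 0.31 with the component. Its paralogue ATP6V0E1 had 0.003 (adjusted p = 0.869), and 0.04 with the component (adjusted p = 0.0151).

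ATP6V1B2, the B subunit isoform found in brain and most other tissues, ranged from 10.05 over 10.63 to 11.47 and had a slope of 0.14 ± 0.02 (adjusted p = 9.43e-13), with 0.11 left beside the component. ATP6V1A, the catalytic A subunit that pairs with B in the V1 sector, ranged from 7.13 over 8.01 to 8.78, with 0.13 ± 0.03 (adjusted p = 3.14e-05) and 0.05 with the component (adjusted p = 0.0191). These 4 genes remained called for CHGB in each of the 17 alternative settings with a slope. ATP6V1C1 and ATP6V1D, the C and D subunits, had 0.09 and 0.06, which turned to -0.03 and -0.02 with the component. In the lower direction CTSH had -0.11 ± 0.03 (adjusted p = 0.00171; -0.07 with the component, adjusted p = 0.0883), and VPS37C of ESCRT-I had -0.09 ± 0.02 (adjusted p = 0.000356; -0.03 with the component, adjusted p = 0.113).

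Markers of cell types moved with CHGB too. All 8 other measured chromaffin markers were higher, with a median slope of 0.84. Of 3 measured fibroblast genes, the matrix proteoglycan genes DCN and LUM were higher, with slopes of 0.28 and 0.26 (adjusted p = 4.06e-17 and 1.82e-05), and 0.22 and 0.14 with the component. In the lower direction lay 4 of 9 cortex markers, NR5A1 (-0.10), MRAP (-0.05), CYP21A2 (-0.04) and SCARB1 (-0.02), and 3 of 8 endothelial genes, ESAM (-0.11), CDH5 (-0.09) and KDR (-0.07). Another 2 of 13 macrophage genes and 1 of 5 T and NK cell genes were lower. The chromaffin median and the slopes in the lower direction are given without the component. The part of medulla tissue and of these other cell types in the slopes of the members was not tested.

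**Figure D4:**
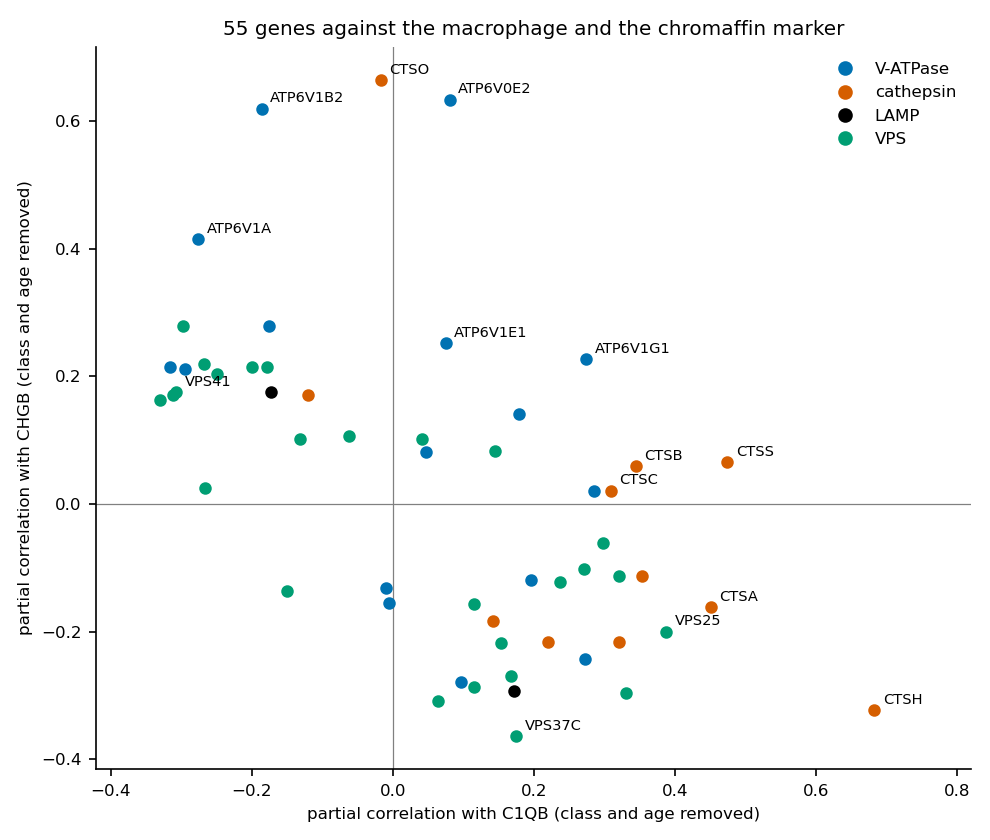
Partial correlations of the 55 members with C1QB (horizontal axis) and CHGB (vertical axis) after class and age, over 145 cows. CTSH lies farthest to the right and CTSO, ATP6V0E2 and ATP6V1B2 lie at the top. No point lies in the upper right corner beyond 0.3 on both axes.

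Between the classes of year and season, 5 of 55 members differed (9.09%), against 11.6% of all transcripts. They were VPS13D, ATP6V0E1, VPS29, ATP6V1E1 and ATP6V1G1. Without the cows of 2008 the count was 3 (5.45%, against 9.74% of all transcripts). It was 2 without those of 2010 (3.64% against 5.31%). Without those of the fourth year (Spring2007 and later classes of that year) it was 8 of 55, against 12.3% of all transcripts. Under array weights 22 members (40%) were called, against 39.1% of all transcripts, and with the first component in the fit 39 (70.9%), against 52.3%. The component was computed after class and age were removed. In this fit it therefore lowered the spread within classes and left the differences between class means unadjusted, so these p-values may be too small. VPS13D, a lipid transfer protein that works at contacts between organelles, had the largest F value (5.70, adjusted p = 4.3e-08). Its class means ran from 7.77 ± 0.28 in summer 2011 (SD, 6 cows, 7.32 to 8.18) to 8.60 ± 0.14 in Summer2004 (3 cows, 8.47 to 8.75). These classes did not overlap, but they are the lowest and the highest of 25, a choice that favours such a gap. ATP6V0E1, an e subunit of the V0 sector, followed (F 4.11, adjusted p = 1.11e-05), with 12.28 ± 0.09 in Spring2005 (5 cows, 12.15 to 12.38) and 12.66 ± 0.11 in summer 2010 (8 cows, 12.55 to 12.81).

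Along the years, 10 members rose (18.2%) and 11 fell (20%), against 25.7% and 19.2% of all transcripts. Among the 121 cows of the last 5 years 13 were called (23.6%, against 32.6% of all transcripts). Class was a random block in the year fits, with a single correlation near 0 for all transcripts (-0.0154). Cows of a class thus counted as nearly independent, and p-values for year may be too small. VPS13D fell by 0.10 ± 0.01 log2 units per year (adjusted p = 1.76e-16). Its yearly mean was 8.58 ± 0.11 in the first year (7 cows), 8.27 ± 0.19 in 2008 (39 cows), 8.15 ± 0.26 in 2009 (24 cows) and 7.90 ± 0.24 in 2011 (15 cows). VPS13B, the paralogue mutated in human Cohen syndrome, fell by 0.08 ± 0.01 per year (adjusted p = 3.28e-06). Its mean was 8.98 ± 0.26 in the first year and 8.55 ± 0.28 in 2011, so that the years overlapped.

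In the other direction, VPS29, a small retromer subunit, rose by 0.06 ± 0.01 per year (adjusted p = 5.12e-06), from 9.67 ± 0.14 in the first year to 10.05 ± 0.19 in 2010. Its class means in 2011 were 9.91 in spring, 9.99 in summer and 10.02 in autumn. ATP6V0E1 rose by 0.05 ± 0.01 (adjusted p = 1.37e-11), from 12.35 ± 0.13 to 12.63 ± 0.08 in 2011. The rise was not even: its yearly means lay between 12.30 and 12.38 up to 2008 and reached 12.52 in 2009 and 12.61 in 2010. ATP6V1E1 and ATP6V1G1, which form the peripheral stalk of the V1 sector, rose by 0.04 ± 0.01 and 0.02 ± 0.01 (adjusted p = 3.26e-06 and 0.000437), and without the cow of summer 2011 the slope of ATP6V1G1 was 0.03. Over the last 5 years the adjusted p of ATP6V1G1 was 0.0539. The yearly mean of ATP6V1E1 was 8.92 in the first year, 8.96 in 2008, 9.17 in 2010 and 9.10 in 2011. The cathepsins CTSC, CTSK and CTSV rose by 0.04, 0.03 and 0.02 and CTSB fell by 0.02, each past the threshold. CTSB lost its call without any of the first 3 years and had a slope of 0.0023 over the last 5 (adjusted p = 0.898). CTSV lost it in 5 of 17 alternative settings, with an adjusted p of up to 0.35 over the last 5 years. Without the cow of summer 2011 the slopes of CTSK and CTSV were 0.04 and 0.03. CTSC lost its call over the last 5 years (adjusted p = 0.0938) and CTSK without 2010 (adjusted p = 0.131). C1QB had no slope on year past the threshold (0.01, adjusted p = 0.685). Whether the handling of samples or arrays changed with the years is not given in the sources used here, and its part was not tested.

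**Figure D5:**
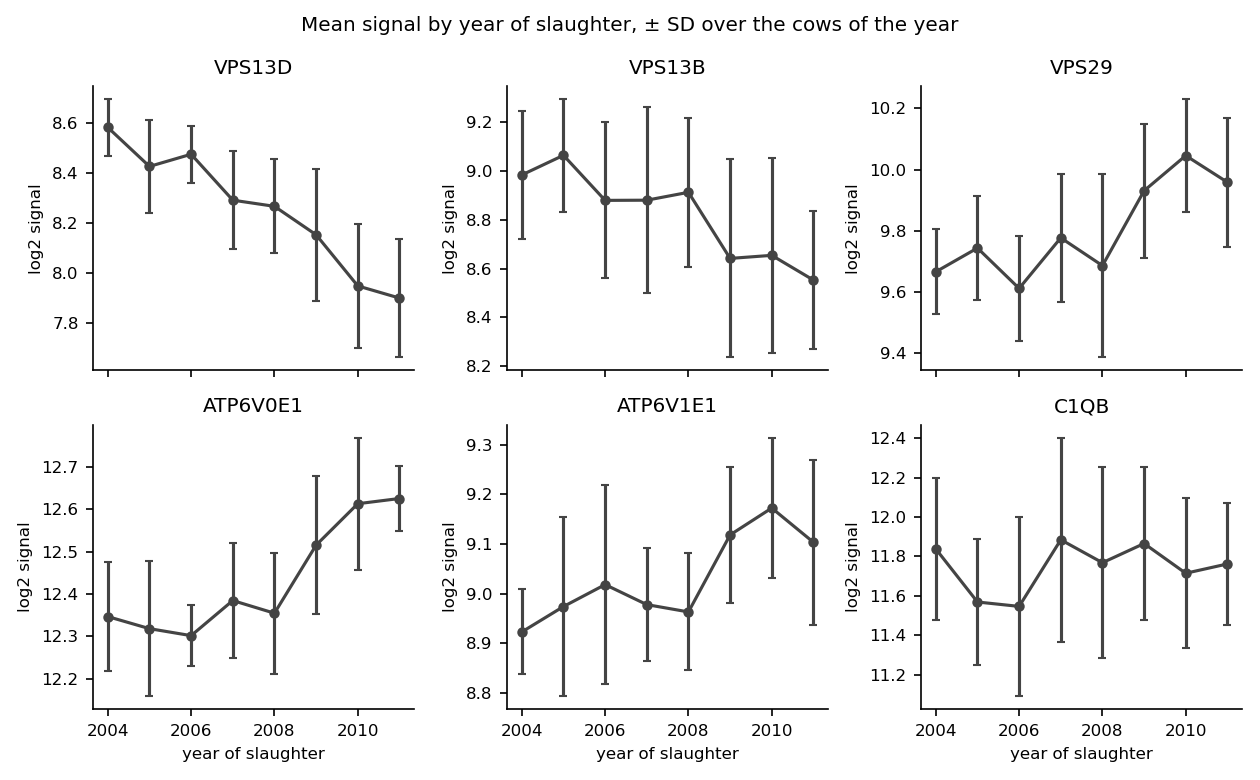
Mean log2 signal (vertical axes) of VPS13D, VPS13B, VPS29, ATP6V0E1, ATP6V1E1 and C1QB by year of slaughter (horizontal axes), with the SD over the cows of the year. VPS13D went from 8.58 to 7.90 and ATP6V0E1 from 12.35 to 12.63, while C1QB stayed between 11.55 and 11.88. The mean of ATP6V0E1 was still 12.35 in 2008.

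Age and season gave no calls by limma, for the members or for any transcript (0% of 10986 for age and 0% for summer against winter). At an unadjusted p under 0.05 there were 5 members of 930 transcripts for age and 5 of 1298 for season. With the first component in the fit 3 members (5.45%) were called for age, against 5.98% of all transcripts, and 6 (10.9%) for summer against winter, against 9.04%. The component was computed after class and age were removed, so it did not adjust the age slopes or season differences. It only lowered the spread around them, and these p-values may be too small. The largest difference between summer and winter was 0.26 ± 0.09 for ATP6V0E2, higher in summer (adjusted p = 0.327), and the steepest slope on age was -0.07 ± 0.02 per 100 days for VPS37C (adjusted p = 0.589).

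Several genes whose proteins work in the same complex lay at opposite ends of the first component. Of the members 22 rose along it (40%) and 26 fell (47.3%), against 37.8% and 45.9% of all transcripts. VPS41 and VPS8, which belong to HOPS and CORVET respectively, correlated with it at r = 0.92 and 0.91 and with each other at 0.90, while VPS11 and VPS18 of the shared core had -0.83 and -0.81. VPS18 and VPS41 accordingly correlated at -0.71, and at 0.17 once the component was removed. Among the accessory proteins of the pump, ATP6AP2, the prorenin receptor, had 0.88 and ATP6AP1 -0.74, with r = -0.70 between them.

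The same held for several pairs of paralogues. LAMP1 and LAMP2 correlated at -0.58 and at 0.18 without the component. VPS4A and VPS4B, the ATPases that take ESCRT-III apart, had -0.73 and then 0.02, and VPS26A and VPS26B of the retromer had -0.67 and then 0.26. VPS13B and VPS13D correlated at 0.54 and kept 0.40. Over the 1485 pairs of members the median correlation was 0.02, and over all pairs of transcripts it was 0.0007. Pairs of genes share the arrays, and those named were picked after their values were seen, so these correlations are a description without p-values.

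Over the 55 pairs of cathepsins the median correlation was 0.147, and 0.0768 without the component, and single pairs moved either way. CTSH and CTSS, which both followed C1QB, correlated at r = 0.28 (rho = 0.18), and at 0.75 without the component. The cow of summer 2008 named above had the highest residual of both, 1.47 for CTSH and 1.67 for CTSS. The share of this cow in the correlation was not tested. CTSK and CTSS, which lie next to each other with 1 coding gene between them in the RefSeq annotation of ARS-UCD2.0, had 0.16 and then 0.38. CTSA correlated with CTSB at 0.61 and with CTSD at 0.53, which became 0.31 and 0.18. CTSV, which RefSeq also lists as CTSL, ran against CTSD (-0.64, then -0.36).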

How the data were processed

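Total RNA of adrenal cortex was hybridised to custom Affymetrix Bovine Gene arrays. The deposited values are log2 signals that the authors obtained with RMA (background correction, quantile normalization and probe summary) in Affymetrix Expression Console and restricted to transcripts detected above background. Another 2 columns held no values and were not used. The number of arrays limits the precision. Symbols came from the platform annotation, in which 377 transcripts had several symbols and 1746 none.

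Values were fitted with limma 3.58.1 (R 4.3.3) on all 10986 transcripts, and p-values were adjusted by Benjamini-Hochberg over all of them at 0.05. Fits of class (F test), of age (per 100 days) and of C1QB and CHGB all held class and age as fixed terms. Season and year were fitted with class as a random block (statmod 1.5.0, consensus correlation -0.0417 and -0.0154), and a winter counted for the year in which it began. Each correlation was a single value for all transcripts, so a larger spread between classes in single members was not allowed for. Residuals had class and age removed. Correlations used 100000 two-sided permutations of cows (NumPy 2.4.6), with 55 members compared with each marker. The fits were also run on simulated data with independent noise for each transcript. These data held neither the first component nor related cows, so they cannot tell how these affect the p-values. Alternatives were other eBayes options, a minimum mean of 7, no age term, array weights, the component, other markers, no block, and single years or cows left out.

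Members and lists were chosen with earlier results of these data known. Values are printed for up to 4 members of a group with the steepest slope on C1QB, up to 2 for each other comparison, and the ends of the range. CTSB, CTSF, CTSV, VPS18, VPS35L and the pairs of members were named after their values were seen.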

Additional observations from a re-analysis of the deposited data

Results flagged for a closer look

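In 95 groups, formed by the classes of 4 to 10 cows for the 5 members that differed between classes, a single cow stood apart from its class 5 times, and chance alone flags about 1 in 20 such groups. ATP6V1G1 had 10.53 in a cow of summer 2011, and the other cows of the class lay between 11.07 and 11.32. This is the cow that was lowest in 9 members. VPS13D had 7.79 in a cow of winter2007/2008 (others 8.28 to 8.51) and 8.63 in a cow of winter2010/2011 (others 7.89 to 8.17). ATP6V0E1 had 12.38 in a cow of autumn 2010 (others 12.61 to 12.73), and ATP6V1E1 had 8.77 in a cow of summer 2008 (others 8.90 to 8.98).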

How the results depend on the processing

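The first component, array weights and single years moved the counts of called members most. With the component as a covariate the count was 39 for class (70.9%, against 52.3% of all transcripts, and 5 members without it), 3 for age (5.45% against 5.98%), 6 for summer against winter (10.9% against 9.04%), 6 for C1QB (10.9% against 4.82%, and 27 members without it) and 7 for C1QB with CHGB in the same fit (12.7% against 5.5%). The component was computed after class means were removed, so in the fits of class, age and season it takes away spread within classes only. It leaves the estimates of class, age and season unadjusted, so the p-values of these fits may be too small. Array weights, whose estimation stopped before convergence, gave 22 for class (40% against 39.1%), 15 for C1QB (27.3% against 12.4%) and 10 for CHGB (18.2% against 23.2%). In a joint fit they gave 10 for C1QB (18.2% against 10.3%) and 9 for CHGB (16.4% against 21.3%). For class the count was 8 without the fourth year, 3 without 2008 and 2 without 2010. For CHGB it was 7 without 2008, alone (12.7% against 11.7%) and in the joint fit (12.7% against 12.2%). It was 15 without the 2 cows farthest in CHGB (27.3% against 31.7%) and 12 with the chromaffin list in its place (21.8% against 21.4%). Without 2009 the joint fit gave 7 for C1QB (12.7% against 6.36%) and 27 for CHGB (49.1% against 49.2%). The year slope gave 13 over the last 5 years (23.6% against 32.6%). Added after seeing the data, CLK1 as a covariate gave 6 for C1QB (10.9% against 4.54%) and 11 for CHGB (20% against 19.6%). CSF1R in place of C1QB, also added after seeing the data, gave 42 (76.4% against 56.3%). The cause of these shifts was not tested. The other 226 counts stayed within 1.5 times, among them those for C1QB with arrays centred on their medians. Leaving out single cows in 44 refits gave 26 to 29 for C1QB, 20 to 27 for CHGB and 5 to 6 for class. As shares of the members these were 47.3% to 52.7%, 36.4% to 49.1% and 9.09% to 10.9%. Over all transcripts the share called ran from 32.3% to 41.3% for C1QB, 39.6% to 47.8% for CHGB and 10.4% to 12.8% for class. The refits include the cows of summer 2008 and summer 2011, chosen after seeing the data. Without them the year slope gave 21 (38.2% against 44.9%) and 18 (32.7% against 44.2%), respectively.

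Of the slopes and correlations of called members 1078 kept direction and call, 224 lost the call and 13 turned. With the component these were VPS52 (-0.0073), VPS26A (0.032) and VPS45 (0.0029) on C1QB, and ATP6V1D (-0.024), VPS54 (-0.00075), ATP6V1C1 (-0.026), VPS33A (-0.0017), VPS4A (0.011), ATP6V0D1 (0.0026), VPS45 (-0.032) and ATP6AP2 (-0.0035) on CHGB. Over the last 5 years VPS53 (0.00083) and CTSB (0.0023) turned on year. No paired analysis was possible because each cow belonged to 1 class and the replicate numbers only name cows.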

Other observations

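The genes of the Ragulator complex, which anchors nutrient signalling at the lysosome, rose with the year of slaughter. All 5 measured members passed the threshold. LAMTOR5 rose by 0.11 log2 units per year (adjusted p = 4.36e-12) and LAMTOR2 by 0.09 (adjusted p = 3.98e-09), followed by LAMTOR4 with 0.07, LAMTOR3 with 0.03 and LAMTOR1 with 0.03. RRAGA, a GTPase that Ragulator activates, rose by 0.03 (adjusted p = 5.91e-08). PIK3R4, the regulatory subunit of the endosomal lipid kinase VPS34, fell by 0.05 (adjusted p = 4.33e-08). In the list of 20 measured genes of sorting and regulation to which they belong, 9 rose and 4 fell with the year, against 25.7% and 19.2% of all transcripts. These genes were picked out after their values were seen, and LAMTOR2 and LAMTOR4 also correlated with the first component (r = -0.79 and -0.83). Their single slopes were not followed in the alternative settings. As for the members, p-values for year may be too small.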
